A study of Mus musculus with 20 samples.

Results

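The 10 genes described here carry out and control the making and remodelling of fatty acids: the transcription factor gene Srebf1, the synthesis genes Acly, Acaca and Fasn, the elongase gene Elovl6, and the desaturase genes Scd1, Scd2, Scd3, Fads1 and Fads2. They were taken by gene symbol, and all 10 were among the 18727 genes tested on 20 one-colour Agilent mouse arrays. Each gene was read from its brightest probe. These probes were well above background on all 20 arrays for 9 genes and on 19 for Acaca.

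RNA came from hair follicle stem cells of male mice, the cells of the follicle's bulge that rebuild the hair at each cycle. Mice on a normal diet (ND) or a high fat diet (HFD) were 5 months old in the groups fed for 3 months and 2 months old in those fed for 4 days, and an aged group of 24 months has no diet named. In each of the 5 conditions the resting follicle (telogen) was measured on 3 arrays and the growing follicle (anagen) on 1 array. No strain, transgene or sorting step is given in the sources used here, nor whether replicates came from separate mice; the p-values therefore rest on array-to-array spread that may be technical.

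In de novo lipogenesis, citrate exported from mitochondria is split to acetyl-CoA by ATP citrate lyase (Acly), carboxylated to malonyl-CoA by acetyl-CoA carboxylase (Acaca) and assembled into palmitate by fatty acid synthase (Fasn). Elovl6 lengthens palmitate to stearate, the SCD enzymes place a first double bond in saturated chains, and FADS2 and FADS1 act in turn on the polyunsaturated chains derived from the diet. Srebf1 encodes SREBP-1, which activates most of these genes, and in skin the products feed membranes, sebum and the lipids of the epidermal barrier.

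A level below is the log2 of a probe's signal after division by the 75th percentile of its array, so 0 is the brightness of a probe at that percentile; differences are on the same log2 scale. The share of spots above background on an array was 60.7% at the least and 83.49% at the most. It lay between 60.7% and 71.1% on anagen arrays and between 64.3% and 83.5% on telogen arrays. At 3 months in telogen it was 73.7% to 77.6% with ND and 64.3% to 74.4% with HFD. The part of these gaps in the members' values was not tested. The 12 markers of bulge stem cells, which include Krt15, Cd34, Sox9, Lhx2 and Lgr5, were well above background on all 20 arrays. Among markers of other cells, the integrin gene Itgam was bright on every array, between 6.61 and 7.68 in telogen and between 6.58 and 7.40 in anagen. Ptprc, the general leukocyte marker, did not pass the filter. Of 6 immune markers measured, 5 were well above background on all telogen arrays and 5 on all anagen arrays. For 8 markers of differentiated epidermis the counts were 7 and 8, and for 12 sebocyte markers 8 and 11. The epidermal keratin gene Krt10 ran from 3.84 to 5.46 in telogen and from 5.10 to 5.46 in anagen. The arrays lay on 3 slides. ND and HFD telogen arrays of a duration shared a slide but lay in different rows of it, the aged telogen arrays had a slide that no other telogen group shared, and every anagen array sat in the first column, where no telogen array did, so diet and row, telogen age and slide, and hair cycle phase and column cannot be told apart. Since whole cell populations were measured, fewer cells of a type and less RNA per cell cannot be told apart either.

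RefSeq promoters were at hand for 7 of the 10 genes, with 9 start sites between them (build GRCm38.p6). The 250 bases before a start were searched on both strands for the sterol regulatory element recognised by SREBPs (TCACNCCAC, in 1.05% of 32851 promoters), the CCAAT box bound by NF-Y (CCAAT, 33.8%), the GC box bound by SP1 (GGGCGG, 32.7%) and the E-box (CACGTG, 6.02%). Below are the promoters of Elovl6, which passed the test between the hair cycle phases, and of Fasn, which passed none, 5′ to 3′ on the strand of the gene with CCAAT boxes of either strand in capitals.
Elovl6: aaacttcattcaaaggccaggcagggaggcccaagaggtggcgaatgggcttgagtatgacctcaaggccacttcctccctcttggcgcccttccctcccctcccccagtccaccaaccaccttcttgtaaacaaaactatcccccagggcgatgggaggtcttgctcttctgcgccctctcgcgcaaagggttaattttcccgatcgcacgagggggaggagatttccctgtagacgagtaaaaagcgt
Fasn: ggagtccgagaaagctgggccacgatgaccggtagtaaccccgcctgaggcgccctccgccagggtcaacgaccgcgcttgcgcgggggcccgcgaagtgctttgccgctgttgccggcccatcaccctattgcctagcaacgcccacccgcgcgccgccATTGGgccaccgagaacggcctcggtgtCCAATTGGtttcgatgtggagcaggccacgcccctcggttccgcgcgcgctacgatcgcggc
The Elovl6 stretch lies at chr3:129532136-129532385 on the plus strand, directly before the annotated gene (chr3:129532386-129638495), and held none of the 4 motifs. The Fasn stretch lies at chr11:120824548-120824797 on the minus strand, inside the annotated span of the gene (chr11:120805958-120825166), and held CCAAT boxes ending 86, 58 and 55 bases before the start, of which the last 2 overlap on opposite strands. A CCAAT box also stood before 2 of the 3 Srebf1 starts, 26 and 162 bases away, and GC boxes stood before Acly, Fads2 and 2 Srebf1 starts. None of the 9 windows held the sterol regulatory element or the E-box in these letters.

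The first comparison asked how growth-phase follicle stem cells differ from resting ones, over all 20 arrays with condition as a covariate. Scd2 and Elovl6 rose in anagen, and these were the only members past the threshold (2 of 10, both higher; limma, Benjamini-Hochberg adjusted p below 0.05). Over all genes, 1145 passed, or 6.11%, with 2.81% higher and 3.31% lower. Of the members, 8 had a difference above 0, against 39.6% of all genes, and their median difference was 0.40, against -0.16 over all genes, and 5 had an unadjusted p below 0.05, against 22.9%. Scaling each array by its median instead raised all differences by about the same amount, to a median of 0.06 over all genes and 0.61 over the members, and turned the split of called genes from 526 higher and 619 lower to 653 higher and 336 lower.

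Scd2, one of the stearoyl-CoA desaturases that make oleate and palmitoleate, stood at 3.95 on the ND 3 months anagen array, 3.06 on HFD 3 months, 3.35 on ND 4 days, 3.24 on HFD 4 days and 2.65 on the aged anagen array. Over the 15 telogen arrays it ran from -3.29 to 2.29, so each anagen array was above each telogen array, as it was for 0.79% of all genes. The difference was 2.46 ± 0.59 (SE; limma, adjusted p = 0.0202), or 5.49-fold with a 95% interval of 2.31 to 13.05. Within conditions it was 1.82 for ND 3 months, 2.79 for ND 4 days and 2.48 for aged, where both phases shared a slide, and 1.33 for HFD 3 months and 3.87 for HFD 4 days, where they did not. With slide as a further term the difference was 2.36, but the call was lost (adjusted p = 0.0920 in limma). It was also lost without the anagen array of ND 4 days (2.37, adjusted p = 0.0737), of HFD 4 days (2.10, adjusted p = 0.0966) or of aged (2.45, adjusted p = 0.0568).

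Elovl6, which feeds the desaturases by lengthening palmitate, stood at 0.01 on the ND 3 months anagen array, 0.09 on HFD 3 months, 0.98 on ND 4 days, 0.53 on HFD 4 days and 0.21 on the aged anagen array. Telogen levels ran from -3.06 to 0.46, and the phases overlapped because the 3 months telogen arrays reached anagen levels. The difference was 1.43 ± 0.39 (adjusted p = 0.0412, limma), or 2.69-fold with a 95% interval of 1.51 to 4.79. The difference was above 0 in 5 of 5 conditions, as it was for 9.25% of all genes. It was smallest at 3 months, 0.56 for ND and 0.04 for HFD, and larger in ND 4 days (2.67), HFD 4 days (2.05) and aged (1.81). Its call held in 18 of 31 settings, and that of Scd2 in 26 of 31. With slide as a term the Elovl6 difference was 1.68 (adjusted p = 0.0673, limma). The call was lost without the anagen array of ND 3 months (1.64, adjusted p = 0.0542), ND 4 days (1.12, adjusted p = 0.171), HFD 4 days (1.27, adjusted p = 0.145) or aged (1.33, adjusted p = 0.119). It was also lost without ND 3 months telogen replicate 2 or 3, HFD 3 months telogen replicate 1, HFD 4 days telogen replicate 2 or 3, or aged telogen replicate 1 or 3 (1.37 to 1.45, adjusted p between 0.0528 and 0.0603 in limma).

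The 3 stearoyl-CoA desaturase genes, which lie in a cluster on chromosome 19, had unlike values. Scd1, the main form of sebaceous glands, was high in both phases, between 2.79 and 4.64 in anagen and between 2.22 and 3.99 in telogen, with a difference of 0.40 ± 0.29 (adjusted p = 0.426, limma). Scd3, another form described in skin, ran from 2.68 to 3.83 in anagen and from 2.24 to 4.67 in telogen, with a difference of 0.12 ± 0.32 (adjusted p = 0.841, limma). As a description, with no test since Scd2 stood out before the 3 were set side by side, its anagen difference was larger than that of Scd1 by 2.06 and than that of Scd3 by 2.33, in 5 of 5 conditions each, and those of Scd1 and Scd3 differed by 0.27. These paralogs are similar in sequence, and how far their probes take up each other's transcripts is not known here; the 4 probes of Scd3 correlated with the Scd1 probe at 0.02, 0.49, 0.52 and 0.47 (Pearson, over the 15 telogen arrays).

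**Figure D1:**
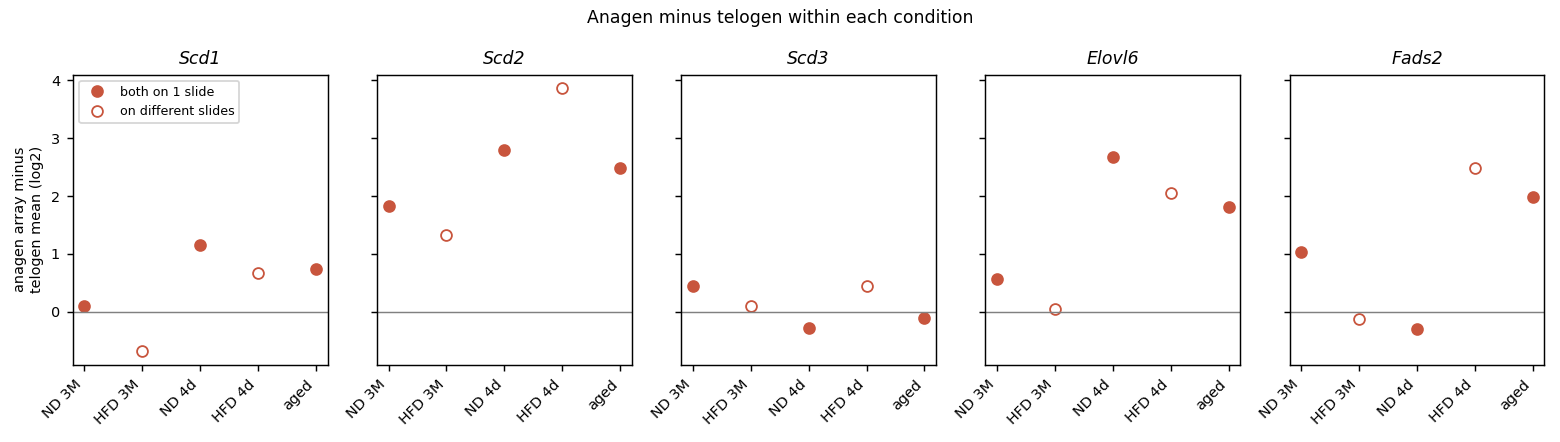
The anagen array minus the mean of the 3 telogen arrays (log2, vertical axis) in each of 5 conditions for Scd1, Scd2, Scd3, Elovl6 and Fads2, with filled points where both phases lay on 1 slide and open points where they did not. Scd2 is above 0 throughout, from 1.33 to 3.87, and Elovl6 is lowest at 3 months (0.56 with ND and 0.04 with HFD). Fads2 is high in HFD 4 days and aged, at 1.04 in ND 3 months, and close to or below 0 in HFD 3 months and ND 4 days.

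Fads2, the first desaturase of the polyunsaturated pathway, did not pass in anagen (1.02 ± 0.31, adjusted p = 0.0641, limma), and 2 arrays carried most of its difference. It stood at 2.98 on the HFD 4 days and 2.76 on the aged anagen array, above all 15 telogen arrays, whose highest level was 1.00. The other 3 anagen arrays, at 0.59 for ND 3 months, 0.12 for HFD 3 months and 0.22 for ND 4 days, lay within the telogen range. Within its own condition, the ND 3 months array was above all its telogen arrays, which reached -0.34, with a difference of 1.04. In HFD 3 months and ND 4 days the differences were -0.12 and -0.30. The 2 high arrays are the anagen arrays of slide 3, and without them the difference was 0.21 (adjusted p = 0.779, limma). The aged telogen arrays, on the same slide, stood at 0.45, 0.91 and 1.00. Without the anagen array of HFD 3 months or of ND 4 days Fads2 passed, at 1.30 (adjusted p = 0.0210) and 1.35 (adjusted p = 0.0257) in limma. Fads1, which acts after FADS2 and whose gene lies nearby on chromosome 19, was highest among the anagen arrays on the same array, with 1.38 on HFD 4 days against 0.69 on aged and 0.73, -0.02 and -0.18 on the others, and its difference was 0.41 ± 0.42 (adjusted p = 0.572, limma).

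Srebf1 was above its telogen mean in all 5 conditions, by 0.96 (ND) and 0.49 (HFD) at 3 months, by 0.51 (ND) and 1.53 (HFD) at 4 days and by 0.29 in the aged mice, but the difference of 0.76 ± 0.31 did not pass (adjusted p = 0.166, limma). Fasn also lay above its telogen mean in all 5, between 0.05 and 0.53, with a difference of 0.35 ± 0.26 (adjusted p = 0.436, limma). The Fasn levels of 0.92 to 1.43 in anagen fell inside the telogen range of -0.03 to 1.57. Acly was below its telogen mean in all 5, as were 9.67% of genes, by 0.39 to 2.22, with a difference of -1.05 ± 0.43 (adjusted p = 0.165, limma). Acaca was spread widely in both phases, between -2.09 and 2.85 in anagen and between -6.71 and 2.81 in telogen, where 1 ND 4 days array gave the lowest level; its difference was -0.10 ± 1.22 (adjusted p = 0.969, limma).

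For Acly and Acaca the result depended on the probe. A second Acly probe, well above background on all 20 arrays, was higher in anagen by 1.13 ± 0.42 (adjusted p = 0.125 over all probes, limma), the reverse of the brightest one, and the pair correlated at -0.14 over the telogen arrays. The 3 dimmer Acaca probes were all higher in anagen, by 2.98 ± 0.76, 1.60 ± 0.56 and 1.06 ± 0.65, and the first of these, the dimmest, passed over all probes (adjusted p = 0.0292, limma) but was well above background on 14 arrays only. The other 3 Scd3 probes were lower in anagen, by 0.72 to 1.65, and none passed (adjusted p between 0.122 and 0.466, limma). The second probes of Fads1 (0.76 ± 0.70) and Fads2 (1.23 ± 0.57) pointed the way of the first. Which transcripts each probe reads was not tested, so for Acly, Acaca and Scd3 no direction can be given for the gene as a whole.

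**Figure D2:**
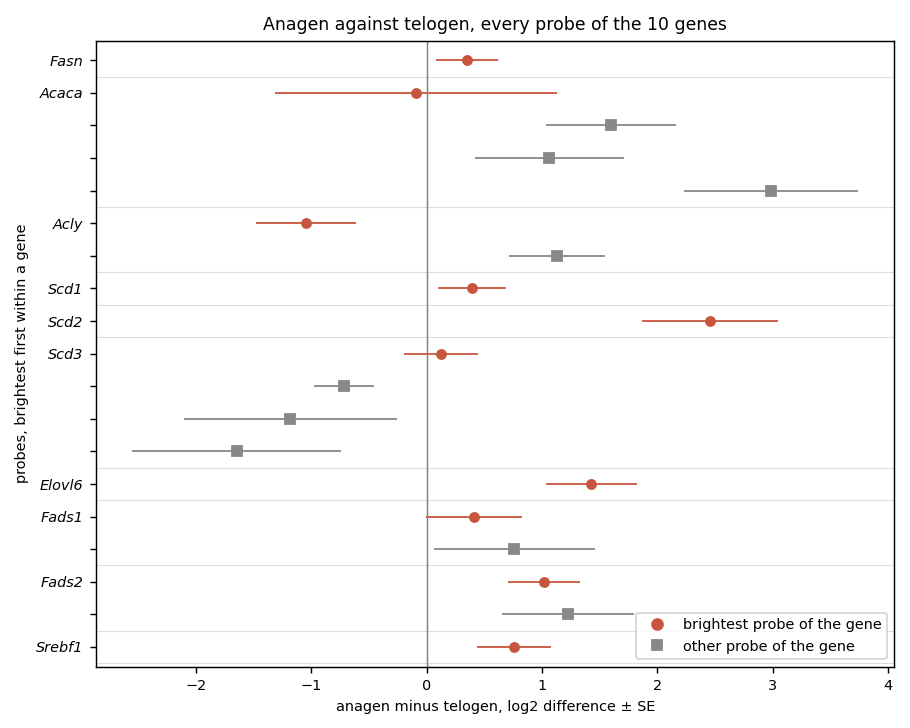
Anagen minus telogen (log2 difference with its standard error as bars, horizontal axis) for all 19 probes of the 10 genes, brightest first within a gene, with circles for the brightest probe and squares for the others. Probes of Acly lie on both sides of 0, 3 probes of Acaca lie above 0 while its brightest lies at -0.10, and the brightest probe of Scd3 lies above its other probes.

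The rest of the pathway was followed through 6 lists with 73 genes, of which 72 were measured. In anagen 2 passed as higher and 2 as lower, with 44 of 72 above 0 and a median of 0.15; over all genes 6.11% passed, so 4 of 72 is close to that background. Pgd, an NADPH-producing enzyme of the pentose phosphate pathway, rose by 1.22 ± 0.34 (adjusted p = 0.0406, limma). Hacd3, a dehydratase of the elongation cycle in which Elovl6 takes the first step, rose by 0.89 ± 0.21 (adjusted p = 0.0173, limma). Mlycd, which breaks malonyl-CoA down again, fell by 0.99 ± 0.25 (adjusted p = 0.0251, limma). Lias, which makes lipoic acid from the product of mitochondrial fatty acid synthesis, fell by 2.09 ± 0.52 (adjusted p = 0.0234, limma). All 4 calls were lost without the ND 3 months anagen array (adjusted p between 0.0838 and 0.144, limma), without that of HFD 4 days (between 0.0512 and 0.117) and with slide as a term (between 0.0877 and 0.167). The call of Mlycd was also lost without the aged anagen array (adjusted p = 0.0797), that of Pgd without the HFD 3 months (0.0625) or ND 4 days (0.0906) anagen array, ND 4 days telogen replicate 1 or 2 or aged telogen replicate 1 (0.0520 to 0.0569), and those of Mlycd (0.109) and Lias (0.0583) with median scaling. With probes averaged per gene, Lias was at -0.79 (adjusted p = 0.207) and Hacd3 at 0.71 (adjusted p = 0.105), and limma called neither. By list, 0 of 19 regulators, 0 of 5 other desaturases and 0 of 16 genes of acyl-CoA and triglyceride steps passed, 2 of 13 genes of carbon and NADPH supply, 1 of 11 of the elongation cycle and 1 of 8 of mitochondrial fatty acid synthesis. In the elongation cycle 9 of 11 genes were above 0, with a median of 0.36, and of the 5 other desaturases 0 were. Over all genes 39.6% lay above 0. Among those desaturases Fads3 was well above background on 12 arrays only.

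Markers of cell types were also compared between the phases. Over all genes 6.11% passed, with 2.81% higher and 3.31% lower. The summed linear level of the 12 sebocyte markers was between 25.7 and 38.0 in anagen and between 6.62 and 27.21 in telogen. Krt79, a keratin of the sebaceous duct, was the brightest of them in anagen, at 4.13 to 5.02 against 1.96 to 4.19 in telogen. It rose by 1.45 ± 0.27 (adjusted p = 0.00469, limma). Of the 12, 1 passed and 9 lay above 0, against 39.6% of all genes above 0. The mean log2 level of the 12 overlapped between the phases, at -1.52 to -0.61 in anagen and -2.52 to -0.625 in telogen. Levels of the wax synthesis genes Awat1 and Awat2 were -5.59 to -1.60 and -5.56 to -1.64 in telogen and -4.88 to -1.63 and -4.73 to -0.82 in anagen, and those of Fa2h were -3.09 to 2.05 in telogen and 0.06 to 1.92 in anagen. Differentiated epidermis, with 8 of 9 markers measured, summed to between 85.3 and 134.9 in anagen and between 33.4 and 131.1 in telogen. Of the 8, 1 passed, Krt1, which rose by 1.26 ± 0.36 (adjusted p = 0.0477, limma). Bulge markers summed to between 385.1 and 552.1 in anagen and between 410.3 and 718.4 in telogen; 3 of 12 fell, Cd34 by 2.19 ± 0.20 (adjusted p = 2.0e-05), Krt15 by 0.81 ± 0.18 (adjusted p = 0.0137) and Col17a1 by 0.72 ± 0.16 (adjusted p = 0.0128), all in limma. Among fibroblast markers Col1a2 fell by 1.90 ± 0.32 (adjusted p = 0.00212, limma), while Dcn entered the test only through its 3 anagen arrays well above background, with 0 such telogen arrays, so its call is not counted here; its anagen levels lay between -6.21 and -1.50. The haemoglobin gene Hba-a2 fell by 1.24 ± 0.36 (adjusted p = 0.0486, limma). The calls of Krt1 and Hba-a2 held in 12 and 9 of 31 settings. Those of Krt15 and Col17a1 were lost without the ND 3 months (adjusted p = 0.0668 and 0.0725) or ND 4 days (0.0676 and 0.0623) anagen array and with median scaling (0.0789 and 0.0831), and that of Col17a1 also with quantile normalization (-0.42, adjusted p = 0.0959), all in limma. None of the adipocyte, endothelial, immune or melanocyte markers measured passed. The part of these markers in the rise of Scd2 and Elovl6 was not tested.

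**Figure D3:**
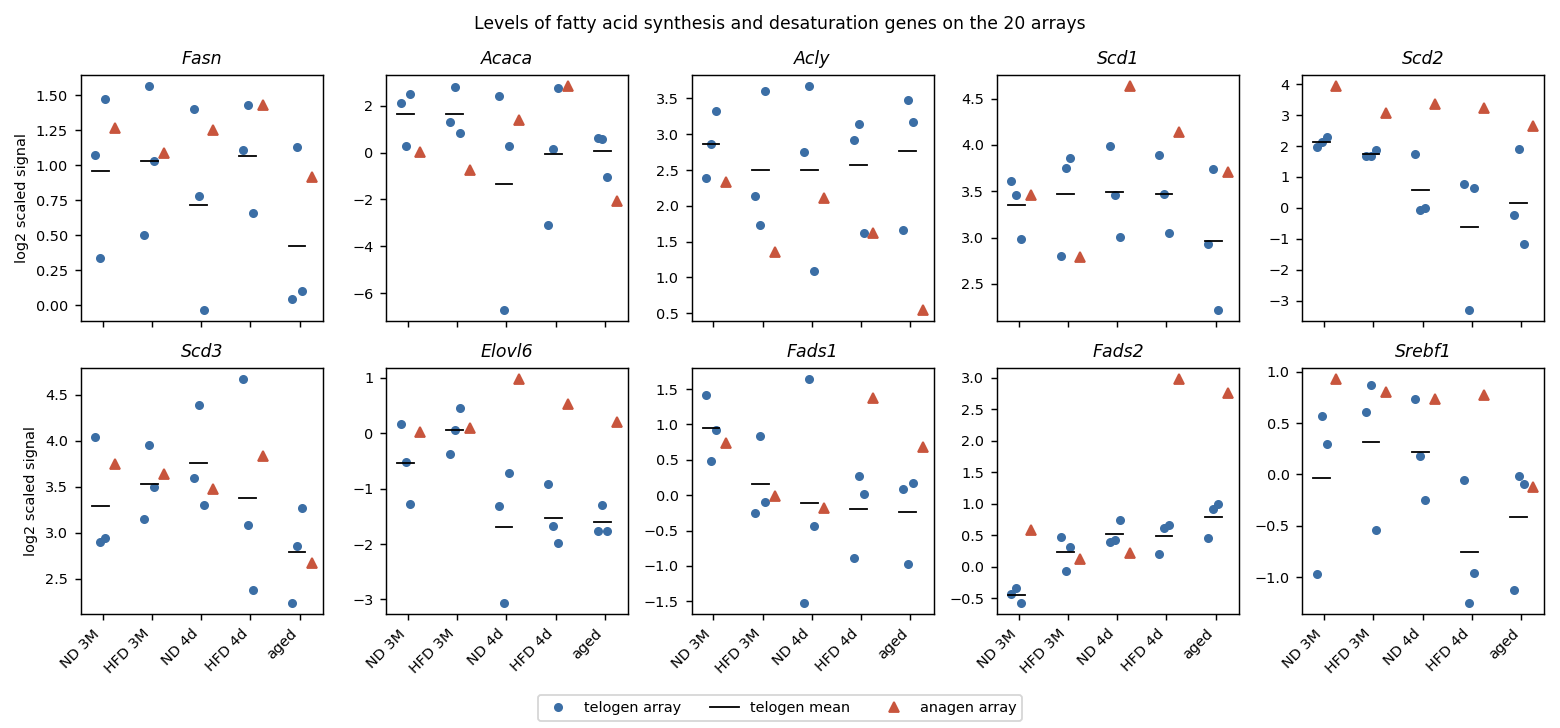
Level (log2 of the signal scaled by the 75th percentile, vertical axis, a separate range for each gene) of the 10 genes on all 20 arrays by condition, with circles for telogen arrays, black lines for telogen means and triangles for anagen arrays. Scd2 triangles lie above all circles, Fads2 circles are lowest in ND 3 months, and Acaca shows the widest scatter.

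The diet comparison asked whether the high fat diet moved these genes in resting stem cells. After 3 months 0 of 10 members passed, as did 0 of all genes (0%) in limma; at an unadjusted p below 0.05 there were 1 member, Fads2, and 730 genes, or 3.90%. Fads2 stood at -0.44, -0.34 and -0.58 with ND and at 0.48, -0.07 and 0.31 with HFD, so the groups did not overlap, as was so for 4.15% of all genes in this direction. The difference was 0.69 ± 0.26 (adjusted p = 1.00, limma), or 1.62-fold with an interval of 1.09 to 2.39. Over all settings tried, its second probe included, the difference ran from 0.03 to 0.85.

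Scd2 was tight in both 3 months groups, at 1.97, 2.14 and 2.29 with ND and 1.67, 1.66 and 1.87 with HFD, which is lower without overlap, as for 5.70% of genes, by 0.40 ± 1.00. That error is wide because limma took the spread from all telogen groups, and Scd2 scattered far more in the 4 days and aged groups. Elovl6 was 0.60 ± 0.56 higher with HFD, Srebf1 0.35 ± 0.53, Scd3 0.24 ± 0.56, Scd1 0.12 ± 0.44, Fasn 0.07 ± 0.47 and Acaca 0.01 ± 1.95. Fads1 was 0.78 ± 0.68 and Acly 0.37 ± 0.73 lower. In all, 7 of 10 differences were above 0, against 46.3% of all genes, with a median of 0.10. Markers of other cells lay above 0 in the same comparison for 8 of 8 genes of differentiated epidermis (median 0.81; summed level 58.1 to 81.4 with ND and 64.6 to 131.1 with HFD) and for 7 of 12 sebocyte genes (median 0.59; 12.9 to 20.8 and 19.9 to 27.2), with 0 of either past the threshold in limma, and their part in the members' values was not tested.

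After 4 days of HFD 0 of 10 members and 0 of all genes (0%) passed in limma, with 0 members and 817 genes (4.36%) at an unadjusted p below 0.05. Srebf1 had the smallest p of the members: it stood at 0.73, 0.18 and -0.25 with ND and at -0.05, -1.25 and -0.96 with HFD, a difference of -0.98 ± 0.53 (adjusted p = 1.00, limma), with overlapping groups. Scd2 stood at 1.76, -0.06 and 0.00 with ND and at 0.76, -3.29 and 0.63 with HFD, a difference of -1.20 ± 1.00 in which HFD replicate 2 lay far below the rest; without it the difference was 0.14. Fasn (0.35 ± 0.47), Elovl6 (0.17 ± 0.56), Acly (0.06 ± 0.73) and Acaca (1.28 ± 1.95) had differences above 0. Those of Scd1 (-0.02 ± 0.44), Scd3 (-0.38 ± 0.56), Fads1 (-0.09 ± 0.68) and Fads2 (-0.03 ± 0.26) were below 0, which makes 4 of 10 above 0, against 45.5% of all genes. The ND mean of Acaca included replicate 2 at -6.71, which was not well above background. Over all settings tried, arrays left out included, the Acaca difference ran from -1.40 to 3.15. Sebocyte markers lay above 0 for 11 of 12 genes (median 0.73; summed level 6.62 to 22.3 with ND and 10.6 to 23.5 with HFD) and epidermal ones for 5 of 8 (median 0.23), with 0 past the threshold in limma. Of the spots, 77.1% to 83.5% were bright enough to count as well above background on the ND arrays of this duration and 68.8% to 71.5% on the HFD arrays, and the part of this gap and of the markers in these values was not tested.

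Averaged over both durations, 0 of 10 members passed (0% of all genes; 803 genes, or 4.29%, at an unadjusted p below 0.05, and 0 members), 5 lay above 0, against 45.1% of all genes, and the median was -0.01. The largest differences were -0.80 ± 0.71 for Scd2 and 0.65 ± 1.38 for Acaca. Over all settings tried, that of Acaca ran from -0.70 to 1.58. The difference between the diet effects at 3 months and at 4 days was tested directly, and again 0 members and 0% of all genes passed in limma (0 members and 701 genes, 3.74%, at an unadjusted p below 0.05). It was 1.32 ± 0.75 for Srebf1 and 0.72 ± 0.37 for Fads2, with adjusted p = 1.00 for both in limma. The 95% intervals had half-widths between 0.57, for Fads2, and 4.23, for Acaca, in each diet comparison of 3 against 3 arrays.

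Of the 72 other pathway genes measured, 0 passed in the diet comparisons. The smallest unadjusted p at 3 months belonged to Lpin2, a phosphatidate phosphatase (-1.14 ± 0.47), and Acsl1, which activates long-chain fatty acids (1.67 ± 0.78). At 4 days they belonged to Fbxw7, which marks SREBPs for degradation (1.68 ± 0.82), and Lias, of the mitochondrial fatty acid synthesis list (1.34 ± 0.70). All 4 had adjusted p = 1.00 in limma.

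**Figure D4:**
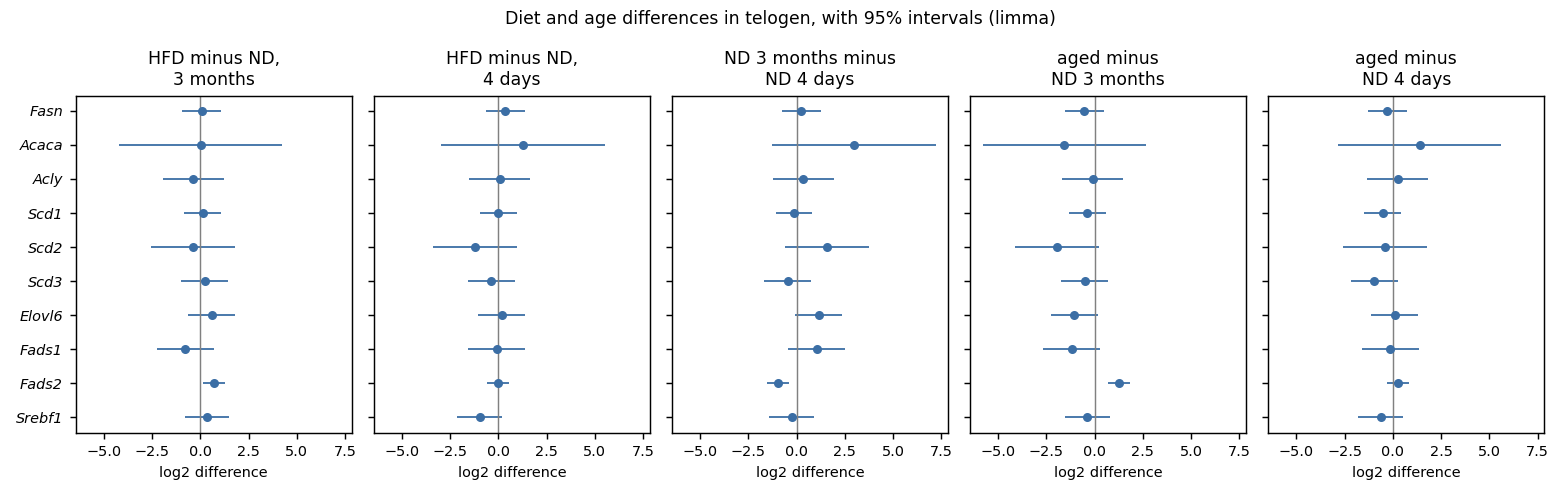
Differences in telogen (log2, horizontal axis; bars are 95% intervals from limma) of the 10 genes for 5 comparisons of 3 against 3 arrays. Fads2 has the narrowest intervals and is the one gene whose interval leaves out 0 in the comparisons with ND 3 months, and the interval of Acaca spans more than that of any other gene.

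Ageing was compared against both ND groups. Against ND 3 months 0 of 10 members passed, and 12 of all genes did (0.0641%; limma), while 1 member, Fads2, and 2232 genes, or 11.9%, had an unadjusted p below 0.05. In this comparison 9 of 10 members lay below 0, against 46.5% of all genes, with a median of -0.52 against 0.06 over all genes. In the same comparison 0 of 12 bulge stem cell markers lay above 0 (median -0.35; summed level 410.3 to 714.5 in aged and 642.2 to 687.9 in ND 3 months), 9 of 12 sebocyte markers did (median 0.43; 10.5 to 15.9 and 12.9 to 20.8) and so did 8 of 9 adipocyte markers (median 0.63; 2.72 to 8.59 and 2.27 to 2.66). Of the 8 markers of differentiated epidermis 5 lay above 0 (median 0.64, summed level 48.1 to 75.8 in aged and 58.1 to 81.4 in ND 3 months). None of these markers passed in limma, and their part in the members' values was not tested. The exception among the members was Fads2, at 0.45, 0.91 and 1.00 in aged against -0.44, -0.34 and -0.58 in ND 3 months. Its difference was 1.24 ± 0.26 (adjusted p = 0.161, limma), or 2.36-fold with an interval of 1.60 to 3.50. The groups did not overlap, which held for 11.6% of all genes in this direction.

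Lower without overlap, as for 6.46% of all genes, were Scd2, Elovl6 and Fads1. Scd2 stood at -0.22, 1.91 and -1.17 in aged, a difference of -1.96 ± 1.00 (adjusted p = 0.461, limma). Elovl6 stood at -1.77, -1.30 and -1.76 in aged and at 0.16, -0.53 and -1.27 in ND 3 months, a difference of -1.06 ± 0.56 (adjusted p = 0.476, limma). Fads1 stood at 0.08, -0.98 and 0.17 in aged and at 1.42, 0.49 and 0.93 in ND 3 months, a difference of -1.19 ± 0.68 (adjusted p = 0.512, limma), but its other probe was 1.07 ± 1.07 higher. With slide as a term, which in telogen rests on the single anagen arrays, Elovl6 turned to 0.52 and Scd1 to 1.12, and the second brightest probe of Scd3 gave 0.28. The remaining differences were -0.54 ± 0.47 for Fasn, -1.58 ± 1.95 for Acaca, -0.09 ± 0.73 for Acly, -0.39 ± 0.44 for Scd1, -0.51 ± 0.56 for Scd3 and -0.38 ± 0.53 for Srebf1.

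Against ND 4 days, the younger mice, the aged group looked different. Again 0 of 10 members passed (7 of all genes, 0.0374%; limma), and 0 members and 1470 genes (7.85%) had an unadjusted p below 0.05. Now 6 of 10 members lay below 0, against 56.3% of all genes, with a median of -0.21. Bulge markers lay above 0 for 2 of 12 (median -0.41), sebocyte markers for 9 of 12 (median 0.24) and adipocyte markers for 4 of 9 (median -0.30). Epidermal markers did so for 5 of 8 (median 0.415). Elovl6 (0.09 ± 0.56), Fads1 (-0.13 ± 0.68) and Scd2 (-0.39 ± 1.00) overlapped, and so did Fads2 (0.27 ± 0.26). Scd3 was lower without overlap, as for 6.51% of genes. It stood at 2.24, 2.85 and 3.27 in aged against 3.59, 4.39 and 3.30 in ND 4 days. The difference was -0.97 ± 0.56 (adjusted p = 0.727, limma), while its other probes gave -0.50 ± 0.46, -0.03 ± 1.52 and -0.13 ± 1.43. Srebf1 (-0.63 ± 0.53), Scd1 (-0.52 ± 0.44) and Fasn (-0.29 ± 0.47) were lower and Acly (0.26 ± 0.73) and Acaca (1.40 ± 1.95) higher, all with overlap. The ND 4 days mean of Acaca again included replicate 2 at -6.71, not well above background. Over all settings tried, the Acaca difference ran from -3.08 to 3.27.

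The ND groups themselves, 5 and 2 months old and on different slides, were set side by side since the aged arrays were compared with both. Of the members 0 passed (3 of all genes, 0.0160%; limma), and 1, Fads2, had an unadjusted p below 0.05, as did 2219 genes or 11.8%. Fads2 was lower at 3 months than at 4 days (0.40, 0.42 and 0.74) by 0.97 ± 0.26 (adjusted p = 0.263, limma) without overlap, which held for 19.8% of all genes in this direction. Scd2 was higher without overlap, by 1.57 ± 1.00, as for 4.41% of genes. Elovl6 (1.15 ± 0.56), Fads1 (1.05 ± 0.68) and Acaca (2.97 ± 1.95) were higher with overlap. The Acaca difference includes ND 4 days replicate 2 at -6.71, which was not well above background. With slide as a term, however, Scd2 was at 0.29, Scd1 at -1.74 and Fads2 at -1.66, while Elovl6 turned to -1.02 and Acaca to -0.18. Acly (0.36 ± 0.73) and Fasn (0.24 ± 0.47) lay above 0, and Scd1 (-0.13 ± 0.44), Scd3 (-0.47 ± 0.56) and Srebf1 (-0.26 ± 0.53) below 0, so that 6 of 10 lay above 0, against 41.4% of all genes. Of the adipocyte markers 0 of 9 lay above 0 (median -0.81), of the epidermal ones 5 of 8 (median 0.59). For sebocyte markers it was 6 of 12 and for bulge markers 5 of 12 (median -0.01 for each). None of these markers passed in limma, and their part in the members' values was not tested. The ageing comparisons and this one share the ND arrays, so their values do not bear on each other independently.

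Ordered by telogen mean, Fads2 ran from ND 3 months (-0.45 ± 0.12; SD, n = 3) through HFD 3 months (0.24), HFD 4 days (0.49) and ND 4 days (0.52) to aged (0.79 ± 0.29), and only ND 3 months was clear of its neighbour. For Elovl6 the 3 months groups (HFD 0.05, ND -0.55) stood above HFD 4 days (-1.52), aged (-1.61) and ND 4 days (-1.70), and for Scd2 ND 3 months (2.13) and HFD 3 months (1.73) stood above ND 4 days (0.56), aged (0.17) and HFD 4 days (-0.63). Scd1 means lay between 2.97 in aged and 3.49 in ND 4 days, Scd3 between 2.79 in aged and 3.76 in ND 4 days, and Fasn between 0.43 in aged and 1.06 in HFD 4 days, with the 3 arrays of a group often spanning more than that. The median SD within a telogen group was 0.25 for Fads2, 0.49 for Scd1, 1.03 for Scd2 and 1.17 for Acaca, against 0.52 for the median gene.

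Among the 72 other pathway genes 0 passed in the ageing comparisons or between the ND groups. The smallest p in aged against ND 3 months belonged to Mbtps1, the protease that first cuts SREBP (-1.08 ± 0.31, adjusted p = 0.266), and Lpin1 (1.44 ± 0.45, adjusted p = 0.299), both in limma. Against ND 4 days they belonged to Mogat1, a monoacylglycerol acyltransferase (1.62 ± 0.68, adjusted p = 0.587), and Elovl5, an elongase of polyunsaturated chains (-0.76 ± 0.34, adjusted p = 0.624), in limma. Between the ND groups they belonged to Hsd17b12, the reductase of the elongation cycle (-1.55 ± 0.53, adjusted p = 0.348), and Fbxw7 (2.06 ± 0.82, adjusted p = 0.372), in limma.

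With 1 anagen array per condition, diet and age in the growth phase could be described but not tested. HFD 3 months minus ND 3 months was below 0 for 9 of 10 members, with a median of -0.57 where the median of all genes was 0.45; the differences were -0.97 for Acly, -0.89 for Scd2, -0.80 for Acaca, -0.75 for Fads1 and -0.67 for Scd1, and 0.08 for Elovl6. These 2 arrays lay on different slides, and 90% of all genes fell between -2.20 and 2.43. HFD 4 days minus ND 4 days was above 0 for 6 members, with Fads2 (2.76), Fads1 (1.56) and Acaca (1.46) highest. Here 90% of all genes fell between -2.08 and 1.80. The HFD 4 days array lay on slide 3 and the ND 4 days array on slide 2. The aged array minus ND 3 months was below 0 for 7 members, with -2.12 for Acaca, -1.78 for Acly and -1.30 for Scd2. Fads2 was higher by 2.18, and 90% of all genes fell between -2.35 and 2.40. Against ND 4 days, 8 were below 0 and Fads2 was higher by 2.54, with 90% of all genes between -2.39 and 2.05. The aged array lay on slide 3 and the ND 3 months array on slide 1. In none of these pairs can group and slide be told apart.

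Correlations between the members were taken over the 15 telogen arrays. Of their 45 pairs 26 correlated above 0, the median Pearson correlation was 0.09, and 0 pairs passed after adjustment (permutation test; smallest adjusted p = 0.310), with 5 at an unadjusted p below 0.05. The closest pair was Fasn and Scd1 (Pearson r = 0.67, permutation p = 0.00688, adjusted p = 0.310; Spearman rho = 0.61, permutation p = 0.0171, adjusted p = 0.300), with r = 0.64 without the 2 arrays farthest from the median and 0.64 after removing group means. Scd2 with Elovl6 gave 0.53 (permutation p = 0.0423, adjusted p = 0.353), and 0.22 after removing group means. Scd2 with Fads2 gave -0.55 (permutation p = 0.0312, adjusted p = 0.353), and -0.21 after removing group means.

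For the 9 members well above background on all telogen arrays, the gene with the most similar pattern was sought among 13885 others, which makes a high correlation likely for any gene. Scd2 was closest to Pou3f1 (Pearson 0.96 over 15 arrays, 0.87 without the 2 arrays farthest from the median), Pkp1 (0.91) and Ngfr (0.88). Elovl6 was closest to Oas1f (0.91), Skint3 (0.88) and Clca3a2 (0.87). Fads2 was closest to Apol10b (0.87), 1700016H13Rik (0.86) and Serinc2 (0.84), and Acly to Klhl42 (0.91), Ica1 (0.89) and Ccnc (0.82). The closest gene was Arhgef3 for Scd1 (0.85), Ctdsp1 for Fads1 (0.85), Olfml2b for Scd3 (0.81), Nsd2 for Fasn (0.79) and Lpin3, a phosphatidate phosphatase gene, for Srebf1 (0.79). No member was among the 3 closest genes of another.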

How the data were processed

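Per the labels' protocols, the authors hybridised Cy3-labelled material from total RNA, 1 array for each of 20 samples. Per the file headers, Feature Extraction 10.7.1.1 gave background-subtracted processed intensities per spot; the deposited series table gives 1 linear signal per probe, whose log2 matched the values used here to within a median offset of 0.01. The medians of its columns were between 0.088 and 0.168; its direction is that of the signal, and genes were not centred.

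For each probe the mean of its spots, outliers left out, was put on the log2 scale, and the 75th percentile of the array was subtracted. Probes well above background on all 3 arrays of a telogen group, or on at least 3 of 5 anagen arrays, were kept. Of 56605 probes, 32994 matched 1 RefSeq symbol by accession and 23611 none; the brightest probe stood for a gene, leaving 18727 genes. One limma fit over 15 arrays gave the telogen comparisons and another over 20 arrays, with condition as a covariate, that of anagen (limma 3.58.1, R 4.3.3); tests were two-sided and called at a Benjamini-Hochberg adjusted p, over all genes, below 0.05. The number of arrays limits the precision. The members, lists and tests were chosen with earlier results of these data known. Named are the 10 members, list genes past the threshold (up to 4 a list), otherwise the 2 pathway genes with the smallest p, and the 3 genes most like each member. Alternatives were another background correction, 4 other scalings, 2 other filters, other probes, a variance trend, other sets of arrays, and a replicate or slide block.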

Additional observations from a re-analysis of the deposited data

How the results depend on the processing

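None of the 10 members was called in any telogen comparison under any alternative tried. Of 1730 values of members under the alternatives, 1581 kept their direction and side of the threshold, 129 that were not called moved in sign or beyond their spread, 18 lost a call and 2 gained one. In anagen against telogen, 1145 genes became 677 with the slide as a block and 359 without the anagen arrays of slide 3 (chosen after seeing the data), and the 2 called members became 0 under each. Leaving out single arrays gave 555 to 2056 genes and 0 to 3 members, with 0 members without the HFD 4 days or the aged anagen array; the cause was not tested. Without 1 array, 0 to 1 genes passed for HFD at 3 months, 0 to 1 at 4 days, 0 to 2 for their mean and 0 to 1 for diet by duration, against 0 for each with all arrays, and 5 to 24 passed for aged against ND 3 months, 4 to 6 for aged against ND 4 days and 0 to 4 for ND 3 months against ND 4 days. For HFD at 3 months, quantile normalization and median scaling each gave 1 gene; for HFD at 4 days, using only the compared arrays gave 1; for diet by duration, median scaling and only the compared arrays each gave 1. Aged against ND 3 months, with 12 genes, gave 2 with normexp, 0 with only probes well above background on all arrays, 0 with only the compared arrays, 7 with the replicate block and 5 with the slide block. Aged against ND 4 days, with 7, gave 3 with normexp, 12 with quantile normalization, 0 with only probes well above background on all arrays, 0 with only the compared arrays and 1 with the slide block. ND 3 months against ND 4 days, with 3, gave 0 with only the compared arrays, 0 with the replicate block and 7 with the slide block. The replicate numbers share only a number: deviations of same-numbered arrays correlated at a median of 0.01, and 4 of 15 arrays correlated best with their own number. The replicate block changed no call of a member. Median scaling moved the median of all genes from 0.06 to -0.22 for aged against ND 3 months, where 9 of 10 members stayed below 0, and left 5 rather than 7 members above 0 for HFD at 3 months. Of the list genes called in anagen, Cd34 and Col1a2 were called in all 31 settings, Pgd in 22, Krt1 in 12 and Hba-a2 in 9.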
